A study of Mus musculus with 6 samples.

Results

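The Tmprss11 genes encode trypsin-like serine proteases that sit in the cell membrane, and they were followed here in the esophagus of mice with carcinogen-induced squamous disease. They were taken as all genes whose symbol begins with Tmprss11, which gave 7 of 54232 genes listed: Tmprss11a, Tmprss11b (listed elsewhere as Tmprss11bnl), Tmprss11c, Tmprss11d, Tmprss11e, Tmprss11f and Tmprss11g. The family was selected on the DTA-1 against isotype read counts of these same libraries, so the fold changes of its genes are descriptions and carry no test. RNA-seq read counts were obtained from 6 libraries of polyA RNA, 3 from mice given DTA-1, an antibody that activates GITR, a co-stimulatory receptor of T cells, and 3 from mice given an isotype control antibody. All mice, the isotype ones included, had drunk the carcinogen 4-nitroquinoline 1-oxide (4-NQO) at 100 µg/ml for 16 weeks from the age of 8 weeks and then plain water for 12 weeks. The antibody, 10 µg into the peritoneum 2 times a week, was started 2.5 weeks before the end. The labels name no strain and no group without carcinogen. They describe the tissue as esophagus enriched for invading cells, and name no mouse for a library, so the spread between libraries may be partly technical.

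Proteases of this family belong to the type II transmembrane serine proteases, the HAT and DESC group. Each has a short cytoplasmic tail, a single membrane span, a stalk with a SEA domain and a trypsin-like catalytic domain at the cell surface, and each is made as an inactive precursor that must be cleaved. They are known mainly from stratified squamous and airway epithelium, where trypsin-like surface proteases process channels, receptors and viral coat proteins. The human counterpart of Tmprss11d is the human airway trypsin-like protease HAT, that of Tmprss11e is DESC1, and that of Tmprss11a was described as ECRG1, an esophageal cancer-related gene.

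The 7 genes form 1 cluster on mouse chromosome 5, between 86231481 and 86745815 (514.3 kb, GRCm38, GENCODE M21), all on the minus strand. In order along the chromosome they are Tmprss11c, Tmprss11d, Tmprss11a, Tmprss11g, Tmprss11f, Tmprss11b and Tmprss11e. The stretch around the catalytic serine is shown because it is what these proteases share by descent and because it shows how far their transcripts differ base by base. In each gene the last exon opens 6 bases before the codon of that serine, given in capitals in the first 36 bases of the exon, 5′ to 3′ on the coding strand.
Tmprss11a: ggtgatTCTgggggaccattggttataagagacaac
Tmprss11b: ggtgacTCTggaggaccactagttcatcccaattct
Tmprss11c: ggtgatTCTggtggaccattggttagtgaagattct
Tmprss11d: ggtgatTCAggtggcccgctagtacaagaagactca
Tmprss11e: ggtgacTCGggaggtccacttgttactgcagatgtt
Tmprss11f: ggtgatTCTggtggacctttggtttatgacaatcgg
Tmprss11g: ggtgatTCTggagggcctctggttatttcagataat
These lie at chr5:86411888-86411923, chr5:86660591-86660626, chr5:86231878-86231913, chr5:86303737-86303772, chr5:86707399-86707434, chr5:86524135-86524170 and chr5:86487525-86487560, in the order of the lines. Pairs of them differed at 8 to 15 of the 36 bases. Over whole transcripts the longest exact run that any pair of the 7 genes had in common was 23 bases, between Tmprss11b and Tmprss11f. Reads longer than that cannot match the transcripts of both genes of a pair exactly over their whole length. Coding sequences were 72.0% to 79.1% identical over the 21 pairs, counting only bases aligned without a gap. Tmprss11b and Tmprss11d were the closest pair, over 973 aligned bases of coding sequences of 1248 and 1251 bases. The level and the closest pair depended on the gap cost.

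Libraries held 23147873 to 29065162 counts, and a gene with 3 counts lies between 0.108 and 0.141 CPM at these depths (CPM, counts relative to the TMM-scaled library size, the scale of every level below). Values of the 3 libraries of a group are given in the order of their replicate numbers. Squamous epithelium was present in all libraries: the keratin genes of differentiated and basal cells, Krt13 and Krt14, stood at 2862 to 20029 CPM and 1296 to 9022 CPM. The 14 differentiated squamous markers summed to 5971 to 19083 CPM in DTA-1 libraries and 19456 to 38676 CPM in isotype libraries, and the 9 basal markers to 3714 to 11561 CPM and 4998 to 17181 CPM. The 12 striated muscle markers took 9.53% to 13.1% of counts in DTA-1 libraries and 5.19% to 8.92% in isotype libraries. In a pair of libraries markers of other epithelium were high. DTA-1 replicate 2 had 877 CPM over the 10 airway and gland markers, mostly Muc5b, Tff2 and Aqp5, against at most 28.1 CPM in any other library, with Smr3a at 0 throughout. Isotype replicate 3 had 2447 CPM over the 7 stomach markers, mostly Pgc, Gkn1 and Gkn2, against at most 18.6 CPM elsewhere.

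All 6 Tmprss11 genes that passed the filter on low counts had lower mean levels with DTA-1, the means lying between 27.4% and 85.3% of the isotype means. The summed level of the family was 347, 225 and 103 CPM in the DTA-1 libraries, against 467, 447 and 468 CPM in the isotype libraries. The groups did not overlap, and the isotype libraries were close to each other. The family averaged 225 ± 122 CPM with DTA-1 and 461 ± 11.8 CPM with isotype (SD, n = 3 each). The log2 ratio of these means was -1.03, and leaving out DTA-1 replicate 1 gave -1.49 and leaving out DTA-1 replicate 3 gave -0.69. In bulk tissue, fewer squamous cells and less of this RNA per cell cannot be told apart. Set against the differentiated squamous markers, the groups overlapped: the family gave 18.2, 36.3 and 17.2 CPM per 1000 CPM of those markers in the DTA-1 libraries, against 24.0, 13.2 and 12.1 in the isotype libraries. Per 1000 CPM of the basal markers it gave 30.0, 60.6 and 21.3 with DTA-1 and 27.2, 45.9 and 93.7 with isotype, again with overlap. The means were 23.9 with DTA-1 and 16.4 with isotype against the differentiated markers, and 37.3 and 55.6 against the basal markers. Only the mean ratio to the differentiated markers was thus higher with DTA-1, and DTA-1 replicate 2 alone lay above all isotype libraries there. The sum of these markers was mostly Krt13 and Krt4, which averaged 15771 and 9102 CPM in isotype libraries. Their log2 fold changes of -1.54 and -1.84 were lower than the median of the list, -1.07. Each of the 6 genes taken singly also overlapped on either ratio.

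**Figure D1:**
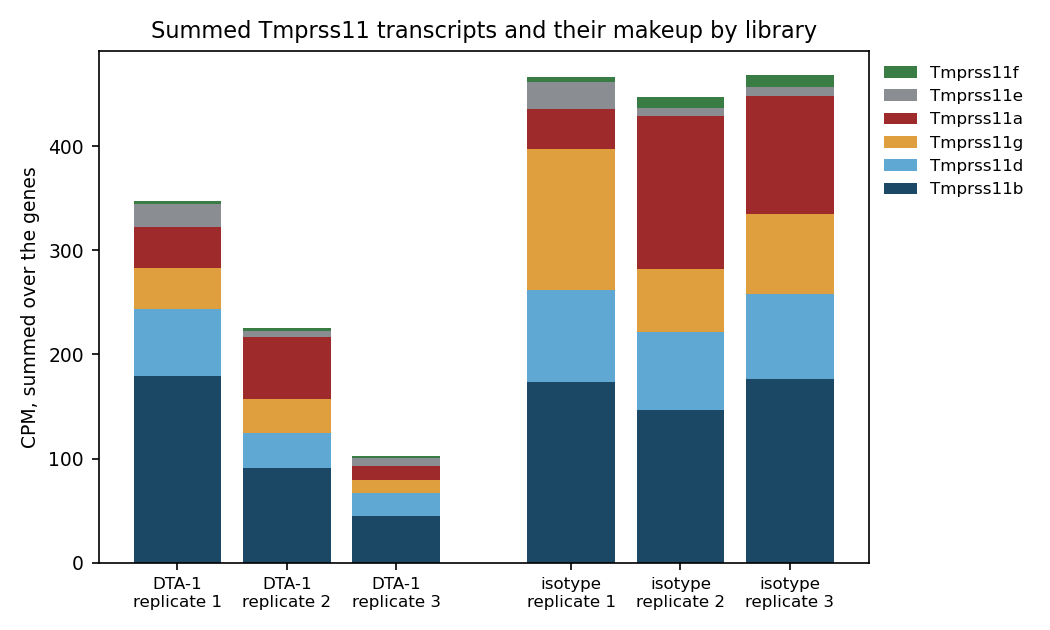
Summed level of the Tmprss11 genes in each library, in CPM (y axis), stacked by gene, with DTA-1 libraries on the left and isotype libraries on the right. The isotype totals lie between 447 and 468 CPM while the share of Tmprss11a and Tmprss11g within them differs; the DTA-1 totals lie between 103 and 347 CPM.

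In edgeR's quasi-likelihood fit over all 15763 genes tested, 0 genes passed an adjusted p of 0.05 (0% of genes tested), so no Tmprss11 gene was called. Before adjustment, 2006 genes had an edgeR p under 0.05. Limma-voom called 0 genes and DESeq2 called 180 of 14512, or 1.24%, with 0.972% called lower, Tmprss11f and Tmprss11g among them. The median log2 fold change was -1.23 over the 6 Tmprss11 genes tested and -0.03 over all genes tested. Of the 6, all were on the lower side, where 52.9% of all genes tested were, and 4 had a log2 fold change of -1 or lower, as did 6.38% of all genes tested. For 3 genes, Tmprss11d, Tmprss11f and Tmprss11g, all DTA-1 values were under all isotype values, a pattern found in 9.38% of genes tested. Since this contrast was in view when the family was picked, these shares say nothing more about the members. Without DTA-1 replicate 1 the count of such genes was 5, when the share over all genes tested was 25.1%. Without DTA-1 replicate 2 and isotype replicate 3, which carried the gland and stomach markers, it was 3, when the share over all genes tested was 22.8%.

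Tmprss11d, the counterpart of human HAT, which cleaves the protease-activated receptor PAR2 and the influenza virus hemagglutinin, lies at chromosome 5, 86302217 to 86373420 (ENSMUSG00000061259). It stood at 63.7, 33.5 and 22.5 CPM in the DTA-1 libraries, against 88.3, 74.3 and 81.7 CPM in the isotype libraries. The groups did not overlap, and DTA-1 replicate 1 was the library nearest to the isotype ones. The log2 fold change was -1.03 ± 0.36 (SE). Without DTA-1 replicate 1 it was -1.54, and without DTA-1 replicate 3 it was -0.74. In the fit without DTA-1 replicate 1 edgeR called 601 of 16303 genes tested, Tmprss11d among them. That call adds nothing, since this contrast was in view when the family was picked.

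Tmprss11b (86657631 to 86676362, ENSMUSG00000035861), whose human counterpart has been linked to lactate export in lung squamous carcinoma, had the highest count of the family in 5 of the 6 libraries. It stood at 179.6, 90.9 and 44.5 CPM in the DTA-1 libraries, against 174, 147 and 176 CPM in the isotype libraries. DTA-1 replicate 1 lay above all isotype libraries and the other DTA-1 libraries lay below them, so the groups overlapped. The log2 fold change was -0.66 ± 0.46 (SE), and without DTA-1 replicate 1 it was -1.29.

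Tmprss11g (86485876 to 86518600, ENSMUSG00000079451), listed by RefSeq also as Desc4, stood at 39.8, 33.3 and 12.9 CPM in the DTA-1 libraries, against 135, 60.5 and 77.1 CPM in the isotype libraries. The groups did not overlap, and isotype replicate 1 stood apart at the high end. The log2 fold change was -1.67 ± 0.47 (SE).

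Tmprss11a (86410410 to 86468990, ENSMUSG00000072845) stood at 39.4, 59.0 and 13.5 CPM in the DTA-1 libraries, against 38.6, 148 and 113 CPM in the isotype libraries. Isotype replicate 1 lay within the DTA-1 range and the other isotype libraries lay above it. The log2 fold change was -1.42 ± 0.63 (SE).

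Tmprss11f (86521898 to 86632424, ENSMUSG00000048764), which has a part in the skin barrier of the mouse, was scarce. It stood at 2.91, 2.36 and 2.10 CPM in the DTA-1 libraries, against 5.42, 10.2 and 11.3 CPM in the isotype libraries. These values rest on 49 to 67 counts in DTA-1 libraries and 147 to 313 counts in isotype libraries. The groups did not overlap, and the 3 DTA-1 libraries lay within 1.39-fold of each other. The log2 fold change was -1.87 ± 0.36 (SE), the lowest of the family.

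Tmprss11e (86705186 to 86745815, ENSMUSG00000054537), the counterpart of human DESC1, divided the libraries by replicate 1 rather than by antibody. It stood at 22.0, 6.27 and 7.32 CPM in the DTA-1 libraries, against 25.8, 7.54 and 8.40 CPM in the isotype libraries. The log2 fold change was -0.23 ± 0.65 (SE). Leaving out isotype replicate 1 gave 0.58, DTA-1 replicate 2 gave 0.08 and DTA-1 replicate 3 gave 0.03, so its direction is not fixed by these libraries.

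Tmprss11c (86231481 to 86289308, ENSMUSG00000061184), known in the mouse from the nervous system as neurobin, had 0 counts in all 6 libraries, which allows up to 0.108 to 0.141 CPM at these depths (3 counts, counting error only). It did not enter the fit.

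**Figure D2:**
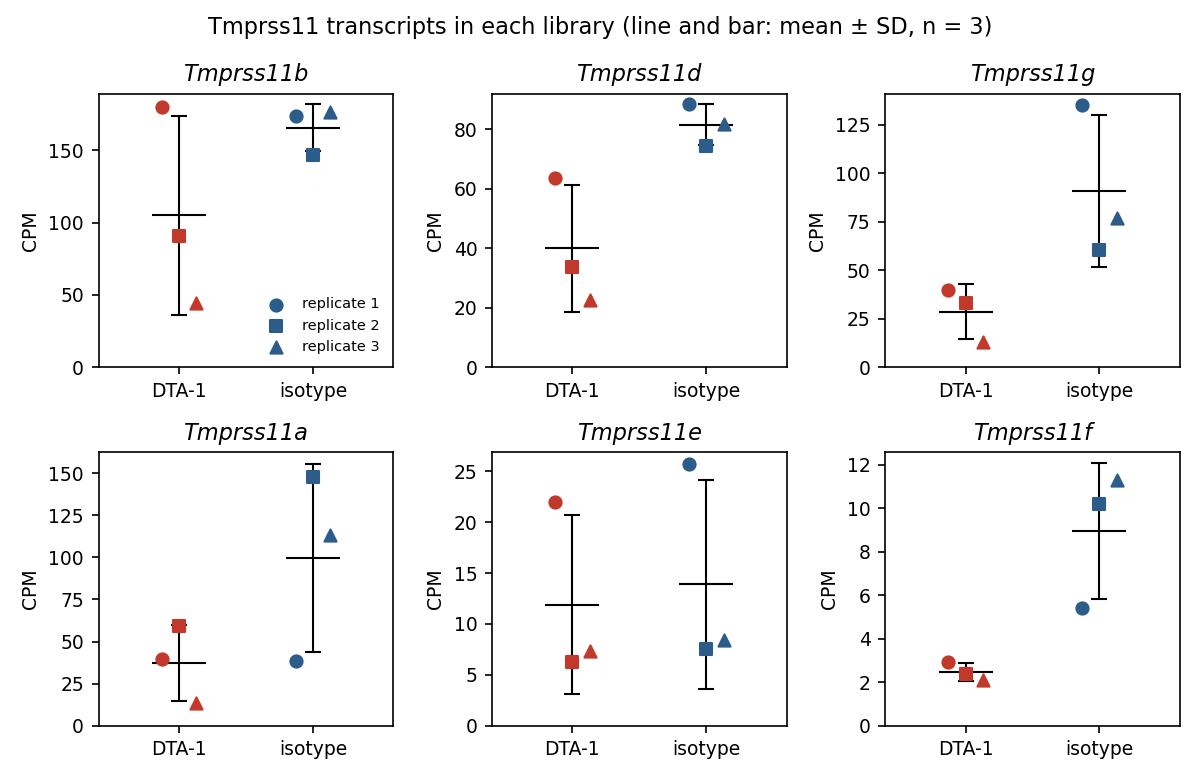
Level of the 6 detected Tmprss11 genes in each library (CPM, y axis from 0, each panel with its own scale), DTA-1 left and isotype right; marker shapes give the replicate number, horizontal lines the mean and bars the SD (n = 3). Tmprss11d, Tmprss11g and Tmprss11f do not overlap between the groups, and Tmprss11e is high in replicate 1 of both groups.

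Levels of different genes were compared per kilobase of annotated exon. In isotype libraries Tmprss11b led with 39.7 ± 3.91 CPM per kb, followed by Tmprss11d with 29.1 ± 2.50, Tmprss11g with 18.1 ± 7.79, Tmprss11a with 17.5 ± 9.75, Tmprss11e with 4.07 ± 3.01 and Tmprss11f with 1.32 ± 0.458 (SD, n = 3). Tmprss11b lay above Tmprss11d in all 3 isotype libraries without overlap. Tmprss11d and Tmprss11g, Tmprss11g and Tmprss11a, and Tmprss11a and Tmprss11e overlapped in range. Within each isotype library Tmprss11d still lay above Tmprss11g, at 31.6 against 26.9, 26.6 against 12.1 and 29.2 against 15.4 CPM per kb. The order of Tmprss11g and Tmprss11a, and that of Tmprss11a and Tmprss11e, changed between isotype libraries. Tmprss11f lay below Tmprss11e without overlap on this scale. In DTA-1 libraries the order was Tmprss11b with 25.2 ± 16.5 CPM per kb, Tmprss11d with 14.3 ± 7.62, Tmprss11a with 6.52 ± 3.99, Tmprss11g with 5.71 ± 2.80, Tmprss11e with 3.47 ± 2.58 and Tmprss11f with 0.361 ± 0.0613, and neighbours down to Tmprss11e overlapped. Within each DTA-1 library, only Tmprss11a and Tmprss11g departed from this order. The summed exons were longer than the longest transcript for Tmprss11a (5715 against 3058 bases), Tmprss11f (6807 against 3605) and Tmprss11g (5015 against 2873). Per kilobase of the longest transcript, Tmprss11a stood at 32.6 ± 18.2 and Tmprss11g at 31.6 ± 13.6 CPM per kb in isotype libraries, beside 30.0 ± 2.57 for Tmprss11d and 39.7 for Tmprss11b, and these 4 genes then overlapped in turn. On that scale Tmprss11e (4.07 ± 3.01) and Tmprss11f (2.49 ± 0.866) overlapped as well in isotype libraries. Tmprss11g then lay above Tmprss11d in isotype replicate 1, and Tmprss11a above Tmprss11d in DTA-1 replicate 2.

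The near-constant family total in isotype libraries was made up in different ways. The coefficient of variation over the 3 isotype libraries was 2.57% for the family total, 8.57% for Tmprss11d and 9.85% for Tmprss11b, but 34.8% for Tmprss11f, 43.0% for Tmprss11g, 55.8% for Tmprss11a and 73.9% for Tmprss11e. Tmprss11a had 0.286, 2.44 and 1.47 times the counts of Tmprss11g in the isotype libraries, an 8.53-fold range. As a share of the counts of both genes, Tmprss11a made up 22.2% in isotype replicate 1 (95% exact Clopper-Pearson interval 21.0% to 23.4%) and 70.9% in isotype replicate 2 (69.7% to 72.1%), so that difference between libraries exceeded counting error. In DTA-1 libraries the same ratio was 0.990, 1.77 and 1.05. The ratio of Tmprss11f to Tmprss11e counts was 0.132, 0.376 and 0.287 in the DTA-1 libraries, against 0.210, 1.35 and 1.34 in the isotype libraries. Tmprss11d and Tmprss11b kept a steadier ratio, 0.354, 0.369 and 0.506 in the DTA-1 libraries, against 0.508, 0.506 and 0.464 in the isotype libraries. A small spread of the summed level was also found for the other type II proteases, whose 13 genes summed to 227 to 236 CPM over the isotype libraries. It was not limited to proteases, as the 13 squamous lineage transcription factors summed to 1761 to 1863 CPM there, with a coefficient of variation of 3.09%.

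To compare profiles, each gene's log2 CPM was centred on its mean over the 6 libraries, and the root mean square difference between genes was taken. The pair nearest to each other was Tmprss11b and Tmprss11d at 0.22, and the pair farthest apart was Tmprss11a and Tmprss11e at 1.52. With the group means subtracted, which removes the antibody contrast, these pairs were again nearest and farthest, at 0.17 and 1.40. Tmprss11a was nearest to Tmprss11f among the members (0.66) and Tmprss11e to Tmprss11b (0.72). Of genes that lie side by side in the cluster, Tmprss11b and Tmprss11e differed by 0.72 and Tmprss11a and Tmprss11g by 0.98. Replicate 1 of both groups was high in Tmprss11e, whereas Tmprss11a and Tmprss11f were lowest of the isotype libraries in isotype replicate 1. The basal squamous markers summed highest in replicate 1 of each group, at 11561 CPM in DTA-1 replicate 1 and 17181 CPM in isotype replicate 1. The 7 smooth muscle markers also differed between libraries, summing to 2958, 689 and 8307 CPM with DTA-1 and to 726, 7610 and 5406 CPM with isotype. The part of either marker list in the split between members was not tested.

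**Figure D3:**
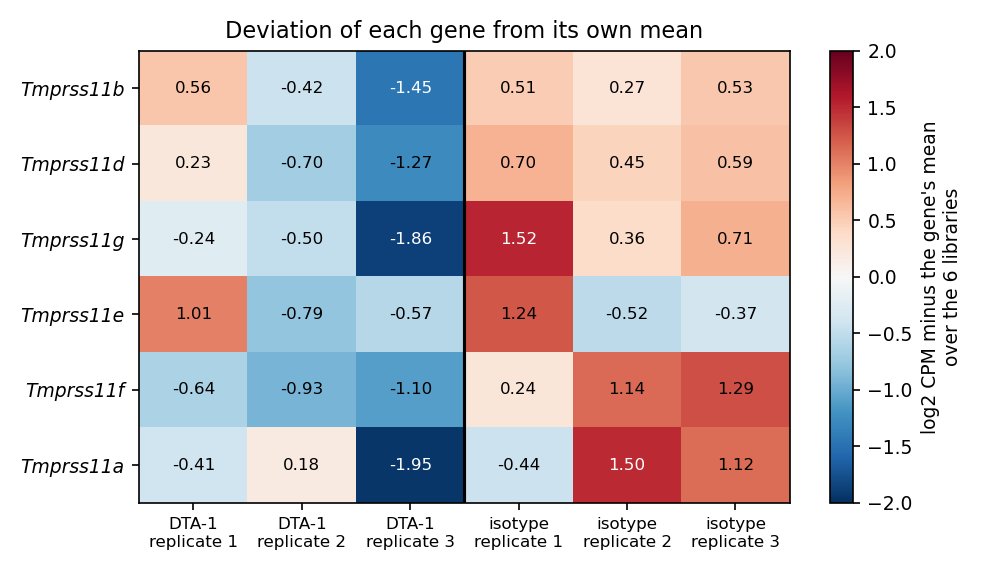
Deviation of each detected Tmprss11 gene from its own mean over the 6 libraries (colour and printed value, log2 CPM), DTA-1 libraries left of the black line and isotype libraries right of it. Tmprss11b and Tmprss11d run in parallel, Tmprss11e is above its mean in replicate 1 of both groups, and Tmprss11a is below its mean in isotype replicate 1 but far above it in isotype replicates 2 and 3.

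Among 13274 other genes whose log2 CPM averaged at least 0, the profiles nearest to the mean profile of the 6 members were those of Rab11fip1, Ehf, Wwc1, Tmprss4, Eps8l2, Epha1, Ppl, Gclc, Cpne5 and Klf5, with root mean square differences of 0.07 to 0.13 over the 6 libraries. In all, 43 of the 13274 genes lay within 0.2. Rab11fip1, an effector of the recycling GTPase Rab11, stood at 30.5, 21.3 and 11.04 CPM in the DTA-1 libraries, against 41.8, 42.3 and 48.9 CPM in the isotype libraries. Ehf, an epithelial ETS transcription factor, stood at 175, 112 and 66.4 CPM with DTA-1 and at 277, 234 and 227 CPM with isotype. Tmprss4, another type II transmembrane serine protease, stood at 55.4, 32.8 and 20.6 CPM with DTA-1 and at 69.4, 76.1 and 89.2 CPM with isotype. Ppl, which encodes the cornified envelope and desmosome protein periplakin, averaged 174 ± 86.4 CPM with DTA-1 and 373 ± 33.1 CPM with isotype (SD, n = 3 each). With group means subtracted, the nearest genes were the metallothionein genes Mt2 (0.03) and Mt1 (0.06), Rnf43 (0.06), Tmem184a (0.07) and Rab11fip1 (0.07). Mt2 averaged 266 ± 134 CPM with DTA-1 and 314 ± 12.7 CPM with isotype.

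Single members had different nearest genes, which were looked up after the values had been seen. For Tmprss11d the nearest was Gclc (0.05), of glutathione synthesis, and for Tmprss11b it was Trp63 (0.14), the squamous lineage factor p63. For Tmprss11f it was the sugar-phosphate transporter gene Slc37a2 (0.16), for Tmprss11e Serpinb6c (0.24), for Tmprss11g the tight junction gene Tjp3 (0.25) and for Tmprss11a the alcohol dehydrogenase gene Adh7 (0.38). Adh7 stood at 171, 153 and 52.0 CPM in the DTA-1 libraries, against 243, 507 and 458 CPM in the isotype libraries, so that isotype replicate 1 was the lowest of the isotype libraries for Adh7 as for Tmprss11a.

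The other type II transmembrane serine proteases were mostly on the lower side as well. Of 13, 7 were tested, 0 were called, 5 had a negative and 2 a positive log2 fold change, and the median was -0.84. Without the filter on low counts, which brings in barely detected genes, that median was 0.23, and without DTA-1 replicate 1 it was -1.35. Tmprss2, which also primes viral coat proteins, stood at 3.87, 6.41 and 1.67 CPM in the DTA-1 libraries, against 29.2, 5.32 and 15.2 CPM in the isotype libraries, with overlap. St14, which encodes matriptase, stood at 58.6, 34.6 and 26.4 CPM with DTA-1 and at 73.1, 75.6 and 55.8 CPM with isotype, also with overlap. Tmprss13, at 53.4, 21.4 and 22.3 CPM with DTA-1 and 55.2, 75.2 and 61.0 CPM with isotype, did not overlap, nor did Tmprss4. In both genes all DTA-1 values were under all isotype values, as in 9.38% of genes tested. Hpn, which encodes hepsin, was the 1 gene of this list with all DTA-1 values above all isotype values, as in 8.6% of genes tested, at 3.70, 4.76 and 6.76 CPM with DTA-1 and 3.54, 1.81 and 2.96 CPM with isotype. Tmprss5 and Tmprss12 overlapped, at up to 2.65 CPM.

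Other serine proteases of squamous epithelium showed 13 negative log2 fold changes among 14 tested, with 0 called and a median of -1.33. In 9 of the 14 all DTA-1 values were under all isotype values, where 9.38% of all genes tested did so. Klk10 was the most abundant kallikrein at 508, 192 and 234 CPM in the DTA-1 libraries, against 857, 564 and 500.3 CPM in the isotype libraries, with overlap. Klk14 stood at 196, 57.3 and 62.5 CPM with DTA-1 and at 215, 277 and 295 CPM with isotype. Prss8, which encodes prostasin, stood at 12.7, 8.81 and 7.49 CPM with DTA-1 and at 16.5, 26.1 and 20.1 CPM with isotype. Prss27 stood at 51.1, 29.0 and 23.6 CPM with DTA-1 and at 94.6, 62.7 and 109 CPM with isotype. Klk6, Klk7, Klk8, Klk9, Klk11 and Klk13 did not overlap between the groups either, while Klk5, Klk12, Prss22 and Prss23 did. Prss23 had the single positive log2 fold change, 0.12.

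Inhibitors of trypsin-like proteases were on the lower side with the proteases. Of 7, 5 were tested, 0 were called, all 5 had negative log2 fold changes and the median was -1.14, or -1.83 without DTA-1 replicate 1. Spint1 and Spint2 encode the Kunitz inhibitors HAI-1 and HAI-2, the main membrane-bound inhibitors of this protease class. Spint1 stood at 59.1, 31.2 and 20.3 CPM in the DTA-1 libraries, against 107, 80.8 and 85.5 CPM in the isotype libraries. Spint2 stood at 101, 74.3 and 58.7 CPM with DTA-1 and at 235, 159 and 119 CPM with isotype. Neither overlapped between the groups, all DTA-1 values lying under all isotype values, as in 9.38% of genes tested. Slpi, the secretory leukocyte peptidase inhibitor, stood at 500.0, 142 and 347 CPM with DTA-1 and at 556, 1443 and 1272 CPM with isotype, and did not overlap. Spink5, the skin inhibitor LEKTI, overlapped, at 682, 119 and 269 CPM with DTA-1 against 662, 684 and 719.5 CPM with isotype, and so did the scarce Spink7. Serpina5 and A2m were under the filter.

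Of 6 genes whose proteins have been described as cleaved by proteases of this group, all 6 were tested, 0 were called, all 6 had negative log2 fold changes and the median was -0.66. Scnn1a, the alpha subunit of the epithelial sodium channel, was the only gene whose groups did not overlap. It stood at 42.8, 19.7 and 17.0 CPM in the DTA-1 libraries, against 52.6, 60.4 and 77.4 CPM in the isotype libraries. All its DTA-1 values were under all isotype values, as in 9.38% of genes tested. F2rl1, which encodes PAR2, overlapped at 6.001, 8.67 and 8.21 CPM with DTA-1 and 13.6, 6.53 and 7.18 CPM with isotype. Plau and Plaur, the urokinase and its receptor, overlapped, as did Scnn1b and Scnn1g.

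All 13 transcription factor genes of the squamous lineage had negative log2 fold changes, with 0 called, a median of -1.05, or -1.64 without DTA-1 replicate 1, and 6 with all DTA-1 values under all isotype values (Trp63, Klf5, Ehf, Pitx1, Tfap2a and Sox2), as in 9.38% of genes tested. Without DTA-1 replicate 3 the median of these 13 genes was -0.77. Trp63 stood at 207, 109 and 61.3 CPM in the DTA-1 libraries, against 244, 222 and 213 CPM in the isotype libraries. The differentiated markers had a median log2 fold change of -1.07 over 14 genes and the basal markers of -0.83 over 9, all of them negative, while leaving out isotype replicate 1 gave a basal median of -0.35 and leaving out DTA-1 replicate 1 one of -1.47. Of the 12 striated muscle markers, 11 had positive log2 fold changes and the median was 0.91. Of 9 immune markers tested, 6 had negative and 3 positive log2 fold changes, with 0 called and a median of -0.92. The B cell genes Ms4a1 and Cd79a had all DTA-1 values above all isotype values, as in 8.6% of genes tested. They reached up to 1.74 and 1.54 CPM with DTA-1 and up to 0.566 and 0.490 CPM with isotype. Cd3e and S100a8 had all DTA-1 values under all isotype values, as in 9.38% of genes tested. Cd3e stood at 0.609, 0.424 and 0.214 CPM with DTA-1 and at 1.22, 1.36 and 0.685 CPM with isotype. S100a8 stood at 1223, 360 and 481 CPM with DTA-1 and at 1336, 1827 and 1433 CPM with isotype. The part of squamous, muscle and immune content in the Tmprss11 values was not tested.

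**Figure D4:**
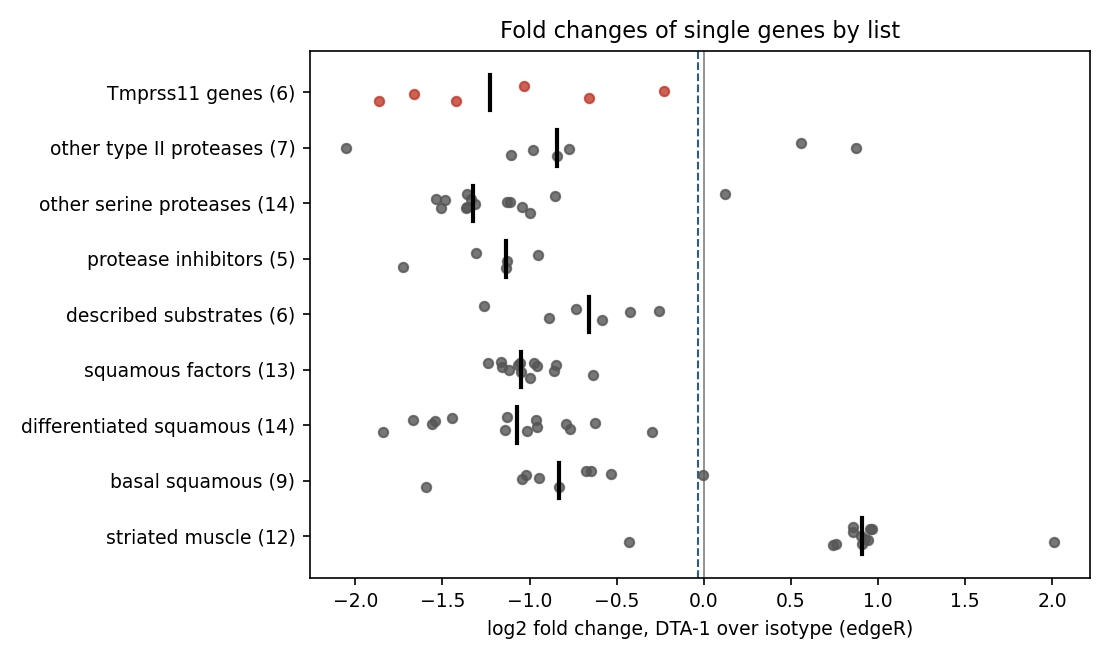
Log2 fold change of DTA-1 over isotype for each tested gene (points) of the Tmprss11 family and of 8 other lists (rows, with the number of genes tested), with the median of each list as a black bar; the dashed line is the median of all 15763 genes tested, -0.03. The Tmprss11 genes have a median of -1.23, and the protease, inhibitor, substrate and squamous lists shown lie on the same side with medians from -1.33 to -0.66. The epidermal-type cornified markers are not shown. Of their 5 tested genes, 2 (Krt1 and Krt10) had positive and 3 negative log2 fold changes. Their median was -0.69, and 0.35 without isotype replicate 3. No gene shown passed the adjusted threshold in edgeR.

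Genes flanking the cluster were read for comparison. Uba6 (86109287 to 86172803), a ubiquitin-activating enzyme gene, stood at 34.5, 17.1 and 19.0 CPM in the DTA-1 libraries, against 34.8, 31.3 and 36.6 CPM in the isotype libraries. Gnrhr (86180754 to 86197901), next to Tmprss11c, had at most 9 counts in a library. On the other side, Ythdc1 (86804221 to 86836659), a reader of methylated RNA, stood at 62.6, 50.6 and 46.7 CPM with DTA-1 and at 63.4, 55.3 and 71.4 CPM with isotype. Its log2 fold change was -0.25 ± 0.17 (SE). Ugt2b34 (86889767 to 86906937), a glucuronosyltransferase gene, stood at 2.52, 2.92 and 0.214 CPM with DTA-1 and at 2.91, 11.1 and 18.1 CPM with isotype. Of the other genes annotated within or across the cluster, Gm16579 and Gm43055 overlap Tmprss11e on the opposite strand. Both were listed at 0 in every library, as were Gm25473 and Gm43056.

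Promoters were searched because the members had different profiles. RefSeq starts (GRCm38.p6, 250 bases before to 50 after the start) were at hand for 6 of the 7 genes. The letters AACNNGTT, from the grainyhead-like consensus and the same on both strands, occurred in Tmprss11a, Tmprss11b and Tmprss11g and in 4.204% of 32851 promoters of the same length. The letters TGANTCA, which widen the AP-1 consensus TGA(C/G)TCA to any central base, are also the same on both strands. They occurred in Tmprss11d and Tmprss11f and in 7.81% of promoters. The match in Tmprss11d has a central T and so is not the AP-1 consensus itself, while that in Tmprss11f has a central G. The windows with these matches are given 5′ to 3′ on the gene's strand, the match in capitals with 20 bases on either side.
Tmprss11a: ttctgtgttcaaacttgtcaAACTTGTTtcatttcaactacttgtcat
Tmprss11b: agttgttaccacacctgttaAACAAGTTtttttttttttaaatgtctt
Tmprss11g: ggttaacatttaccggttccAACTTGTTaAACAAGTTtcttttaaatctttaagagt
Tmprss11d: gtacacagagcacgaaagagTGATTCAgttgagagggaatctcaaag
Tmprss11f: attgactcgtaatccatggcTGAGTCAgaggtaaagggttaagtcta
These windows lie at chr5:86469137-86469184, chr5:86676411-86676458, chr5:86518620-86518676, chr5:86373400-86373446 and chr5:86632446-86632492, in the order of the lines, all on the minus strand. The first base of the match lay at -174 in Tmprss11a, -140 in Tmprss11b, -56 and -47 in Tmprss11g, -39 in Tmprss11d and -48 in Tmprss11f, counted from the start. On either strand, CACCC, read by Krueppel-like factors, occurred in Tmprss11c and Tmprss11f and in 57.5% of promoters. GGAAGT, an ETS sequence, and TATAAA, the TATA box, occurred in none of the 6 and in 23.8% and 13.6% of promoters. Genes of grainyhead-like factors were measured beside them: Grhl1 stood at 93.3, 29.3 and 26.6 CPM in the DTA-1 libraries, against 90.4, 122 and 121 CPM in the isotype libraries, and Grhl3 at 89.0, 26.1 and 32.1 CPM with DTA-1 against 75.6, 87.1 and 184 CPM with isotype. Grhl2 stood at 32.7, 16.3 and 6.80 CPM with DTA-1 against 42.1, 40.4 and 25.6 CPM with isotype. Each of these genes overlapped between the groups. The pair nearest in profile, Tmprss11b and Tmprss11d, had no motif of these in common.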

How the data were processed

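The authors deposited whole-number read counts per Ensembl gene, 1 file per library and not normalized. The submitters' processing notes name cutadapt 1.13, STAR, HTSeq 0.6.1p1 and DESeq2 1.14.1 with mm10; what each did, and the strand setting, is not stated there. Symbols, positions and lengths came from GENCODE M21 (GRCm38), sequences from GENCODE and RefSeq.

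Genes were filtered with filterByExpr (minimum count 10, total 15), scaled by TMM and tested with edgeR 4.0.16 (robust quasi-likelihood, R 4.3.3, treatment as the sole term, Benjamini-Hochberg adjustment at 0.05 over 15763 genes). The steps were tested on simulated data. Profiles used a prior count of 2. Alternatives were limma-voom (limma 3.58.1) and DESeq2 1.42.0. The members and gene lists were chosen with earlier results of these data known. Named were all Tmprss11 genes, the 10 and 5 nearest profiles, 2 flanking genes on each side and list members, those not named being given as counts. Some genes first listed among the inhibitors and substrates are not reported here, and their lists were counted without them. Intervals and floors cover counting error only. Protein sequences were not used here; coding nucleotides were aligned instead. All pairs of libraries differed by more than sampling noise.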

Additional observations from a re-analysis of the deposited data

How the results depend on the processing

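Tmprss11a, Tmprss11b, Tmprss11d, Tmprss11f and Tmprss11g kept a negative log2 fold change under the 3 tools, other scalings and filters, the replicate block and every left-out library. Tmprss11e ranged over left-out libraries between -1.03 and 0.58, turning positive when isotype replicate 1 (0.58), DTA-1 replicate 2 (0.08) or DTA-1 replicate 3 (0.03) was omitted; the cause was not tested. DESeq2 called 180 genes, 39 higher and 141 lower, against 0 by edgeR; Tmprss11f and Tmprss11g were among the 141 lower ones, which adds nothing since this contrast was in view when the family was picked. Leaving out 1 library gave edgeR 0 to 601 calls (601 without DTA-1 replicate 1). The log2 ratio of the summed family then ranged from -1.49 to -0.69. It left 3 to 5 Tmprss11 genes with all DTA-1 values under all isotype values, fewer libraries making overlap rarer. There were 5 without DTA-1 replicate 1, when 25.1% of all genes tested had this pattern, against 9.38% with all libraries. Without isotype replicate 1 there were 4, when the share was 14.2%. Each other omission left 3, with shares of up to 20.4%. Scaling by library totals alone moved the median of all genes to -0.19. Over bases aligned without a gap, the median identity of coding sequences was 75.5%. It was 71.3% at a gap cost of 11 and 1 in place of 10 and 0.5, where Tmprss11b and Tmprss11f were the closest pair. Over genes, deviations of same-numbered libraries from their group means correlated at 0.02, -0.33 and -0.09. Differently numbered libraries gave -0.18 to 0.36. Deviations cancel within a group of 3 libraries, so these correlations depend on each other and cannot decide whether replicate numbers pair the libraries. With the replicate block edgeR called 0 genes. Depth limits Tmprss11c, whose 0 counts allow up to 0.141 CPM, and Tmprss11f, with 49 to 313 counts. With 3 libraries a group, single-library shifts such as those of replicate 1 decide several values.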
